A study of Mus musculus with 2 samples.

Results

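Irf4, Irf8 and Prdm1 are 3 of the 32285 genes listed in the deposited single-cell matrices of sorted thymic epithelial cells from mice. They were chosen by name as a small family of transcription factors that link immune signals to differentiation, and each symbol matched 1 gene identifier. Their UMIs, the counted molecules of a droplet library, were followed through the epithelial cell classes of a library labelled Foxp1 KO (Cre+) and a library labelled Foxp1 WT (Cre-).

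Irf4 and Irf8 belong to the interferon regulatory factors, proteins that bind DNA weakly on their own and more tightly beside an Ets partner such as PU.1 (Spi1) or Spi-B, or beside a BATF and Jun pair. Irf4 is known from B cells, plasma cells and activated T cells, and Irf8 from dendritic cells, monocytes and germinal centre B cells. Prdm1 encodes Blimp-1, a zinc finger repressor that directs plasma cell differentiation and acts in the terminal differentiation of skin epithelium. In the thymic medulla, epithelial cells (mTECs) mature under TNF receptor family signals such as RANK and CD40, which act through NF-kB. The regulator Aire then opens a programme of peripheral tissue genes, and some cells go on to mimetic states that resemble tuft cells, keratinocytes or other peripheral types.

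The promoters are printed because Irf4 and Irf8 were lower together in Aire-stage cells labelled KO, and Prdm1 was not. Each is the 250 bases before the RefSeq start on build GRCm38.p6, read 5′ to 3′ along the gene's strand. Capitals mark the matches to the 6 motifs searched on both strands. These were the interferon gamma element TTCNNNGAA, the interferon element (GAAA, any 2 bases, GAAA), the Ets-IRF element (GGAA, any 2 bases, GAAA), the NF-kB form (GGG, any 2 bases, TTTCC), the AP-1 site TGANTCA and the TATA box TATAAA.
Irf4, chr13:30748983-30749232, plus strand: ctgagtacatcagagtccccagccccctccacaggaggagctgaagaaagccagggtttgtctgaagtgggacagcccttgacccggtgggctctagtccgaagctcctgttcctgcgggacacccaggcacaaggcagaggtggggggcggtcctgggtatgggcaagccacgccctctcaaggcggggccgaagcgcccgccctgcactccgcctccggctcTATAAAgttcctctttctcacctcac
Irf8, chr8:120736108-120736357, plus strand: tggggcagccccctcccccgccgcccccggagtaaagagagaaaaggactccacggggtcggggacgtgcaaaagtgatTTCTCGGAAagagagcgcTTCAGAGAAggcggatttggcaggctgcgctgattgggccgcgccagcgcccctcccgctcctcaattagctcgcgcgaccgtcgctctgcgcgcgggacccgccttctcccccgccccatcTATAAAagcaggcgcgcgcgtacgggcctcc
Prdm1, chr10:44458749-44458998, minus strand: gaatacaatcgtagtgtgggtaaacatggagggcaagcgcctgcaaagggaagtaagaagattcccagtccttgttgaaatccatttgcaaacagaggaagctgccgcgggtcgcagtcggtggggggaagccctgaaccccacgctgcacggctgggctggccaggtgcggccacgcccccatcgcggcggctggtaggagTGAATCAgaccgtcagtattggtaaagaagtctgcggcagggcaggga

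The Irf8 window held a pair of interferon gamma elements, TTCTCGGAA at 171 to 163 bases and TTCAGAGAA at 153 to 145 bases before the start, and a TATA box at 31 to 26 bases. The Irf4 window held a TATA box at 26 to 21 bases before the start, and the Prdm1 window held an AP-1 match, TGAATCA, at 48 to 42 bases. The matches did not overlap, and none of the other motifs matched in these windows. Of the 32851 RefSeq promoter windows of this length, 7.02% hold the interferon gamma element, 12.4% the TATA box, 6.75% the AP-1 site, 2.98% the interferon element, 2.30% the Ets-IRF element and 1.41% the NF-kB form. A match is a description of letters and not a bound site. RefSeq lists a further start for Irf8, whose window held no match.

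On GRCm38, Irf4 (ENSMUSG00000021356) lies at chr13:30749226-30766976 and Irf8 (ENSMUSG00000041515) at chr8:120736358-120756694, both on the plus strand. Prdm1 (ENSMUSG00000038151) lies at chr10:44437177-44528501 on the minus strand. The Prdm1 window printed above lies inside these bounds, so its RefSeq start is internal to the gene as annotated here. The bases before the annotated 5′ end, at 44528501, were not searched. An annotated transcript, Gm20388, overlaps Irf8 on the same strand, so reads from both could not be told apart and the Irf8 values are less certain on that account.

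Live EpCAM+ cells were sorted from digested thymi after a Percoll gradient, and both libraries are thus a gate that enriches epithelium. Both samples carry KO in their genotype field, so the titles and library names gave the groups. The Cre driver, the deleted part of Foxp1, the age and sex of the mice and the number of animals in each library were not stated in the labels. Since each group is 1 library, no difference below has a replicate check, and no test was made. Intervals are at 95% and cover counting error only, neither the spread between animals nor the gathering of UMIs in single cells.

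In the KO-labelled library there were 4277 barcodes and 25233944 UMIs, of which barcodes 3584 (83.8%) passed the cell filters, with a median of 5097.5 UMIs. In the WT-labelled library there were 4957 barcodes and 33120715 UMIs, of which barcodes 4037 (81.4%) passed, with a median of 6267 UMIs. Epithelial clusters took 3267 cells labelled KO and 3887 labelled WT. Foxp1, the gene named in the labels, was at 405 CPM (UMIs of the gene per 1000000 UMIs of a class) in the epithelial cells labelled KO and 252 CPM in those labelled WT, so its level goes against the label. Whether the counted bases lie in the deleted part is not known here. The 2 libraries shared 5 barcodes, 3 of them among the kept cells, and the doublet caller called 0 cells, so doublets were not removed.

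Over all epithelial cells, Irf4 and Irf8 were lower in the KO-labelled library and Prdm1 was near equal. Irf4 stood at 29.3 CPM (95% interval 27.1 to 31.6; 656 UMIs) in the KO-labelled library and 40.5 CPM (38.3 to 42.8; 1247 UMIs) in the WT-labelled library, a log2 ratio of -0.47 (-0.61 to -0.33). Irf8 stood at 129 CPM (124 to 134; 2887 UMIs) labelled KO and 163 CPM (159 to 168; 5027 UMIs) labelled WT, a log2 ratio of -0.34 (-0.41 to -0.28). Prdm1 stood at 10.5 CPM (235 UMIs) labelled KO and 10.8 CPM (332 UMIs) labelled WT, a log2 ratio of -0.04 (-0.29 to 0.21). None of the 3 genes passed 1.5-fold here, a size that 17.2% of the 21836 genes with at least 20 UMIs passed in either direction, 9.70% lower and 7.49% higher in the KO-labelled library. Of the 14363 genes with at least 200 UMIs, 602 were that far lower and 409 that far higher.

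The intervals of Irf4 and Irf8 did not overlap between the libraries over all epithelial cells, and those of Prdm1 did. The make-up of the classes differed between the libraries, and with the cells labelled KO reweighted to the cluster make-up of the WT-labelled library the log2 ratios were -0.41 for Irf4, -0.29 for Irf8 and 0.07 for Prdm1. Irf4 was lower in the KO-labelled library in 12 of the 15 epithelial clusters and higher in 3. Irf8 was lower in 11 and higher in 4, and Prdm1 was lower in 5, higher in 9 and without a UMI in 1. Over all epithelial cells, 51.8% of all genes tested were lower in the KO-labelled library. How many of them were lower in as many clusters, or had intervals apart, is not given here. With each cell given equal weight in place of each UMI, the Irf8 log2 ratio was -0.18.

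**Figure D1:**
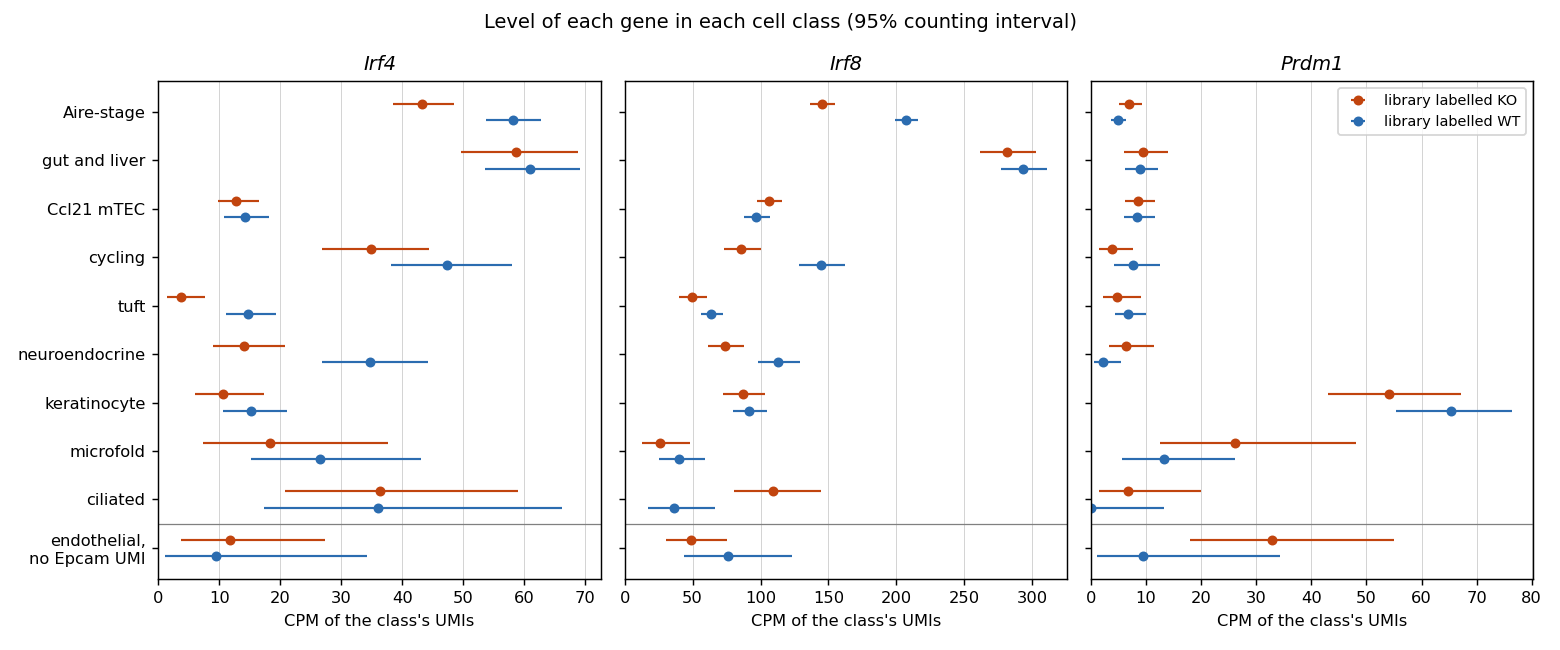
Level of Irf4, Irf8 and Prdm1 in each cell class, in CPM of the class's summed UMIs, with the KO-labelled library in orange above the WT-labelled library in blue. Bars are 95% counting intervals. Irf4 and Irf8 peak in the class named gut- and liver-like (58.7 and 281 CPM labelled KO, 61.0 and 293 CPM labelled WT), and Prdm1 peaks in the keratinocyte-like cells (54.1 CPM labelled KO and 65.3 CPM labelled WT). At a finer resolution, most cells of the gut- and liver-like class fell in a cluster without a class name.

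Irf8 had its highest level among the classes of 20 or more cells in the gut- and liver-like cells, a mimetic class named from 8 of 11 markers such as Hnf4g, Lypd8, Saa3 and the nitric oxide synthase Nos2. At a finer resolution, given below, most of these cells fell in a cluster without a class name. Irf8 was higher there than in the cluster that kept the gut and liver markers. In the KO-labelled library, the order was gut- and liver-like at 281 CPM, cTEC-like (cortical) at 179, Aire-stage at 145, ciliated-like at 109, Ccl21-expressing mTEC-like at 106, keratinocyte-like at 86.8, cycling at 85.7, neuroendocrine-like at 73.5, tuft-like at 49.8 and microfold-like at 26.1 CPM. In the WT-labelled library, it was gut- and liver-like at 293, Aire-stage at 207, cycling at 144, neuroendocrine-like at 113, Ccl21-expressing at 97.0, keratinocyte-like at 91.6, tuft-like at 63.9, microfold-like at 39.8 and ciliated-like at 36.0 CPM. The cTEC-like class held 31 cells labelled KO and 2 labelled WT, and its WT level was left out of the order. Most cells of the class called Ccl21-expressing were low in Ccl21a, as given below.

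Among the named classes, the top of the Irf8 order was clear of its neighbours in both libraries, while the middle was not. An unnamed epithelial cluster, given below, stood near the top class and is outside this order. In the WT-labelled library the intervals of the gut- and liver-like (277 to 311 CPM), Aire-stage (199 to 216 CPM) and cycling cells (128 to 162 CPM) did not overlap. In the KO-labelled library the ciliated-like (80.3 to 144 CPM), Ccl21-expressing (97.2 to 116 CPM), keratinocyte-like (72.6 to 103 CPM) and cycling cells (73.0 to 100 CPM) overlapped. The cycling and neuroendocrine-like cells stood above the Ccl21-expressing cells in the WT-labelled library and below them in the KO-labelled library.

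Irf4 followed a similar order at its top. In the KO-labelled library it stood at 58.7 CPM in gut- and liver-like, 43.3 in Aire-stage, 36.3 in ciliated-like, 34.8 in cycling, 18.3 in microfold-like, 14.0 in neuroendocrine-like, 12.8 in Ccl21-expressing, 10.7 in keratinocyte-like and 3.71 CPM in tuft-like cells. In the WT-labelled library it stood at 61.0 CPM in gut- and liver-like, 58.1 in Aire-stage, 47.3 in cycling, 36.0 in ciliated-like, 34.8 in neuroendocrine-like, 26.5 in microfold-like, 15.3 in keratinocyte-like, 14.8 in tuft-like and 14.2 CPM in Ccl21-expressing cells. The gut- and liver-like and Aire-stage intervals overlapped in the WT-labelled library (53.5 to 69.2 against 53.8 to 62.7 CPM) and did not in the KO-labelled library (49.7 to 68.9 against 38.6 to 48.4 CPM).

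Prdm1 had a different order, with the keratinocyte-like cells highest in both libraries. Its level there was 54.1 CPM (43.0 to 67.3; 81 UMIs) in the KO-labelled library and 65.3 CPM (55.4 to 76.5; 154 UMIs) in the WT-labelled library. The microfold-like cells came next, at 26.1 CPM (12.5 to 48.1) from 10 UMIs in the KO-labelled library and 13.3 CPM (5.73 to 26.1) from 8 UMIs in the WT-labelled library, so their interval overlapped that of the keratinocyte-like cells in the KO-labelled library. The other epithelial classes ran from 3.75 to 9.39 CPM in the KO-labelled library and from 0 to 8.82 CPM in the WT-labelled library, with intervals that overlapped for most pairs.

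Levels outside the epithelium were measured in endothelial-like cells without an Epcam UMI (143 cells labelled KO with a median of 2409 UMIs, 51 labelled WT with a median of 3128). Irf4 stood there at 11.7 CPM in the KO-labelled library and 9.48 CPM in the WT-labelled library, Irf8 at 49.2 CPM labelled KO and 75.9 CPM labelled WT, and Prdm1 at 32.8 CPM labelled KO and 9.48 CPM labelled WT. The Irf8 levels of tuft-like and microfold-like cells were thus at or near that of endothelial-like cells, and the Irf4 levels of tuft-like, keratinocyte-like and Ccl21-expressing cells overlapped with it. Fibroblast-like cells (24 labelled KO, 13 labelled WT) had 0 UMIs of Irf4 in both libraries, 6 UMIs of Irf8 labelled KO and 13 labelled WT, and 2 UMIs of Prdm1 labelled KO and 0 labelled WT.

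At an equal depth of 2000 UMIs per cell, 19.9% (16.8 to 23.3) of the Aire-stage cells labelled KO and 31.0% (27.9 to 34.2) of those labelled WT had an Irf8 UMI. In the gut- and liver-like cells the Irf8 shares were 34.4% labelled KO and 37.9% labelled WT, in the endothelial-like cells without Epcam 8.79% labelled KO and 15.4% labelled WT, and in the fibroblast-like cells 18.2% labelled KO (4 of 22 cells) and 7.69% labelled WT (1 of 13). The tuft-like shares of Irf8, 9.56% in the KO-labelled library and 7.97% in the WT-labelled library, and the microfold-like shares, 3.17% labelled KO and 4.76% labelled WT, were near or below the endothelial-like shares. They are thus not shown to exceed that reference, whose WT-labelled share rests on 6 of 39 cells (5.86 to 30.5%). Whether endothelial-like cells express Irf8 themselves was not tested, and no level of stray UMIs was estimated. The Ccl21-expressing shares, 17.8% labelled KO and 16.3% labelled WT, had intervals that overlapped those of the endothelial-like cells. For Irf4 the shares were 7.30% (5.35 to 9.67) in the KO-labelled library and 11.4% (9.36 to 13.7) in the WT-labelled library in Aire-stage cells, and 1.10% labelled KO and 0 of 39 cells labelled WT in endothelial-like cells, where a count of 0 allows up to 7.69%. Unthinned, 13.0% of all epithelial cells labelled KO and 18.3% of those labelled WT had an Irf4 UMI.

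The Prdm1 share was highest in the keratinocyte-like cells, at 8.47% (4.92 to 13.4) in the KO-labelled library and 8.90% (5.90 to 12.8) in the WT-labelled library. The endothelial-like share of Prdm1 was 8.79% in the KO-labelled library and 2.56% in the WT-labelled library, so the keratinocyte-like share was above it in the WT-labelled library, with intervals that overlapped, and not in the KO-labelled library. Shares in the other epithelial classes with at least 100 cells in each library ran from 0.797% to 2.30% in the KO-labelled library and from 0 to 1.86% in the WT-labelled library.

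Aire-stage cells, named from markers such as Aire, Cd80, Cd40 and Calcb, are the stage in which mTECs express Aire and many peripheral genes. Irf8 stood at 145 CPM (137 to 155; 1021 UMIs) in the 608 cells labelled KO and 207 CPM (199 to 216; 2354 UMIs) in the 888 cells labelled WT, a log2 ratio of -0.51 (-0.62 to -0.40). Irf4 stood at 43.3 CPM (304 UMIs) in the KO-labelled library and 58.1 CPM (661 UMIs) in the WT-labelled library, a log2 ratio of -0.42 (-0.63 to -0.23). Prdm1 stood at 6.98 CPM (49 UMIs) in the KO-labelled library and 4.84 CPM (55 UMIs) in the WT-labelled library, and its log2 ratio of 0.53 had an interval from -0.06 to 1.11. The intervals of Irf4 and Irf8 thus lay below 0 and that of Prdm1 included it. The Prdm1 log2 ratio was no smaller in size than theirs and rests on far fewer UMIs. The share of all genes with an interval that leaves out 0 is not given here. None of the 3 passed 1.5-fold, as 21.6% of 19430 genes did, 11.8% lower and 9.81% higher in the KO-labelled library. Of the 10225 genes with at least 200 UMIs there, 546 were that far lower and 328 that far higher.

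Both clusters of Aire-stage cells gave the same pattern. In cluster 0, led by genes such as Obp2a and Prss29, Irf8 stood at 146 CPM in the KO-labelled library and 207 CPM in the WT-labelled library, and Irf4 at 39.9 CPM labelled KO and 54.2 CPM labelled WT. In cluster 7, the one with Fezf2 among its markers, Irf8 stood at 145 CPM labelled KO and 207 CPM labelled WT and Irf4 at 49.8 CPM labelled KO and 70.2 CPM labelled WT. Prdm1 was lower in cluster 7, at 3.32 CPM in the KO-labelled library and 1.45 CPM in the WT-labelled library, than in cluster 0, at 8.89 CPM labelled KO and 5.92 CPM labelled WT.

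Detection of Irf8 was compared between cells with and without a UMI of Fezf2, a regulator of peripheral genes in mTECs that works apart from Aire. Among Aire-stage cells labelled KO, at equal depth, 21.8% of those with a Fezf2 UMI and 18.4% of those without had an Irf8 UMI, and among those labelled WT 34.0% of those with and 27.0% of those without did. The intervals of cells with and without Fezf2 overlapped in both libraries. Within the cells with a Fezf2 UMI, the share labelled KO (17.0% to 27.3%) lay below that labelled WT (29.9% to 38.3%). The corresponding shares for Irf4 were 6.77% and 7.72% in the KO-labelled library, and 11.0% and 11.9% in the WT-labelled library.

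Over the 9 classes compared, Irf4 was lower in the KO-labelled library in 8 and marginally higher in 1, with an interval below 0 in 3. Irf8 was lower in 7 and higher in 2, with an interval below 0 in 4 and above 0 in 1. Prdm1 had 20 UMIs or more in 6 classes, lower in 3 and higher in 3, and no interval left out 0. Of all genes tested, from 47.7% (cycling) to 55.6% (microfold-like) were lower in the KO-labelled library. The share of all genes with an interval that leaves out 0 is not given here, so these counts have no background. They include Irf4 and Irf8 in tuft-like cells, whose levels were near those of endothelial-like cells. Past 1.5-fold and lower in the KO-labelled library were Irf4 in tuft-like and neuroendocrine-like cells, Irf8 in cycling, neuroendocrine-like and microfold-like cells, and Prdm1 in cycling cells. Irf8 in ciliated-like cells was past it in the other direction. The share of all genes that far lower was 8.73% in cycling, 9.59% in tuft-like, 11.2% in neuroendocrine-like and 15.8% in microfold-like cells, and 16.7% of genes were that far higher in ciliated-like cells.

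Taken as 1 class, the gut- and liver-like cells, the class where Irf4 and Irf8 were highest, showed no difference between the libraries beyond counting error. This did not hold for the part of the class that kept gut and liver markers at a finer resolution, given below. Irf8 stood at 281 CPM (261 to 303; 719 UMIs) in the 322 cells labelled KO and 293 CPM (277 to 311; 1164 UMIs) in the 483 labelled WT, a log2 ratio of -0.06 (-0.20 to 0.08). Irf4 stood at 58.7 CPM labelled KO and 61.0 CPM labelled WT, a log2 ratio of -0.05 (-0.36 to 0.24), and Prdm1 at 9.39 CPM labelled KO and 8.82 CPM labelled WT, a log2 ratio of 0.09 (-0.72 to 0.88). The Irf8 interval leaves out the log2 ratio seen in Aire-stage cells, and the difference between the classes was not tested. In this class, 19.4% of 14043 genes passed 1.5-fold.

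At a finer resolution the class divided into 3 clusters that differed in Irf8. A cluster without a class name, led by the chemokine Ccl22, Nos2, the cytokine genes Il12a and Tnf and the co-stimulatory ligand Cd70, held 229 cells labelled KO and 327 labelled WT. It met 2 of the 7 Aire-stage markers, Cd80 and Ubd, and 2 of the gut and liver markers, too few for a name. Irf8 stood there at 344 CPM in the KO-labelled library and 325 CPM in the WT-labelled library, and Irf4 at 65.8 CPM labelled KO and 66.0 CPM labelled WT. In the cluster with gut and liver markers, led by Ttr, Apoc3, Sis and Apoa4, Irf8 stood at 121 CPM in the KO-labelled library and 176 CPM in the WT-labelled library, a log2 ratio of -0.54 (-0.95 to -0.14). Irf4 stood there at 29.8 CPM labelled KO and 56.6 CPM labelled WT, a log2 ratio of -0.92 (-1.78 to -0.13), from 18 UMIs labelled KO and 56 UMIs labelled WT. Both genes were thus below their Aire-stage levels in this cluster, in both libraries. The top place of the class therefore does not hold for its cells with gut and liver markers.

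The near equal levels of the whole class therefore came with an Irf8-high cluster that was near equal and a smaller one, of 72 cells labelled KO and 120 labelled WT, in which both genes were lower in the KO-labelled library. Another cluster, of 23 cells labelled KO and 33 labelled WT, led by kallikrein genes such as Klk1b26, had Irf8 at 213 CPM in the KO-labelled library and 382 CPM in the WT-labelled library. Across the whole class, cells with a Nos2 UMI had an Irf8 UMI in 40.5% of cases in the KO-labelled library and 45.1% in the WT-labelled library, and cells without one in 30.1% labelled KO and 32.9% labelled WT. Nos2 is among the markers that named the class. With classes set by markers in each cell, the log2 ratios were -1.05 for Irf4 and -0.35 for Irf8.

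**Figure D2:**
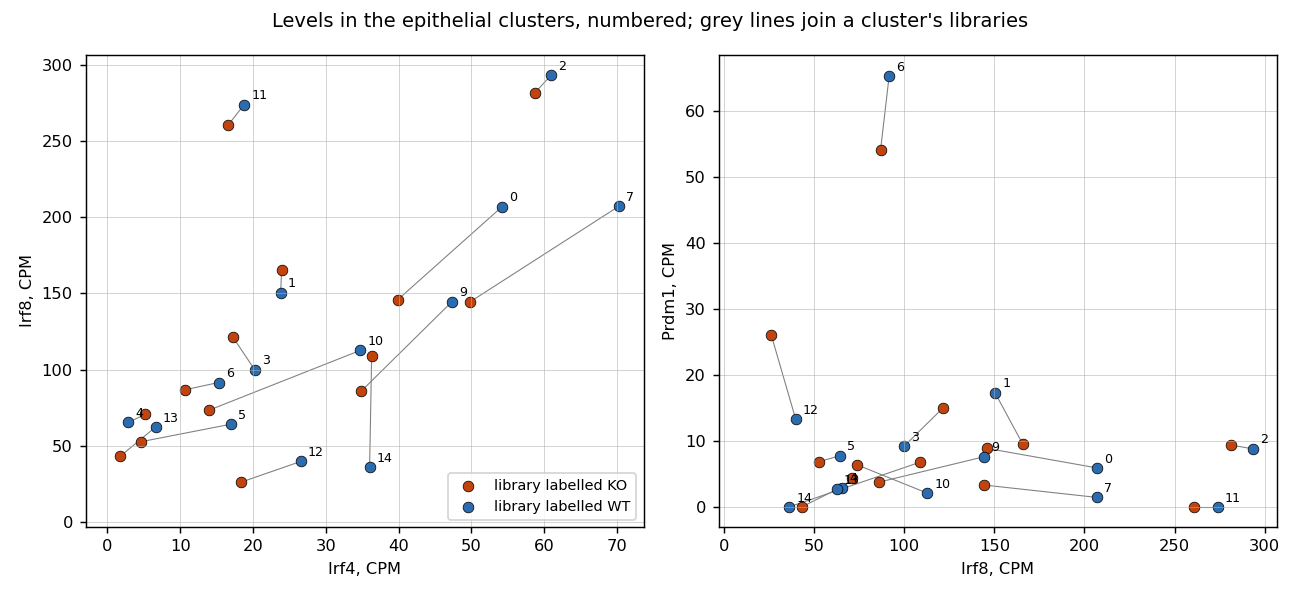
Irf8 against Irf4 (left) and Prdm1 against Irf8 (right) in CPM for 14 numbered epithelial clusters, the KO-labelled library in orange and the WT-labelled library in blue, joined by a grey line for each cluster. Cluster 2 (gut- and liver-like) and clusters 0 and 7 (Aire-stage) lie highest for both Irf4 and Irf8, and cluster 6 (keratinocyte-like) is highest for Prdm1. Cluster 11 is high for Irf8, and its lower Irf4 level rests on few UMIs.

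A further cluster high in Irf8 had no class name. Cluster 11, of 68 cells labelled KO and 163 labelled WT, had a low depth and was led by genes such as Fabp9, the chemokine Ccl5 and Apoc2. Irf8 stood there at 261 CPM in the KO-labelled library and 274 CPM in the WT-labelled library, Irf4 at 16.6 CPM labelled KO and 18.8 CPM labelled WT, and Prdm1 at 0 UMIs in both. It was thus near the gut- and liver-like cells in Irf8 and lower in Irf4. With few cells at a median of 1874 UMIs, these Irf4 levels rest on few UMIs.

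In the Ccl21-expressing mTEC-like cells, named from markers such as Krt5 and Krt14, the 3 genes differed little. Ccl21a, the chemokine gene of the class name, was a marker met only in cluster 4 (661 cells, 16507.5 CPM). It stood at 2004 CPM in cluster 1 (921 cells) and 2921 CPM in cluster 3 (798 cells). Both lay below the 3278 CPM of the cycling cells, so most of the class was low in Ccl21a. Irf8 stood at 106 CPM in the 1302 cells labelled KO and 97.0 CPM in the 1078 labelled WT, a log2 ratio of 0.13 (-0.06 to 0.32). Irf4 stood at 12.8 CPM labelled KO and 14.2 CPM labelled WT, and Prdm1 at 8.54 CPM labelled KO and 8.45 CPM labelled WT. Among the 3 clusters of the class, Irf8 was lowest where Ccl21a was highest, at 70.8 CPM in the KO-labelled library and 65.4 CPM in the WT-labelled library, against 166 CPM labelled KO and 150 CPM labelled WT in the shallowest cluster. Of all genes, 15.3% passed 1.5-fold in this class.

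Cycling cells, marked by Mki67 and Top2a, had the lowest Irf8 log2 ratio of the 9 classes. Irf8 stood at 85.7 CPM (160 UMIs) in the 177 cells labelled KO and 144 CPM (284 UMIs) in the 163 labelled WT, a log2 ratio of -0.75 (-1.04 to -0.47). Irf4 stood at 34.8 CPM labelled KO and 47.3 CPM labelled WT, with an interval of the log2 ratio from -0.92 to 0.03, and Prdm1 at 3.75 CPM labelled KO and 7.63 CPM labelled WT from 7 UMIs labelled KO and 15 UMIs labelled WT, with an interval from -2.56 to 0.36. The share of cells with an Irf8 UMI at equal depth was 13.2% (8.57 to 19.2) in the KO-labelled library and 23.0% (16.7 to 30.3) in the WT-labelled library. The Irf8 log2 ratio was -0.31 with classes set by markers in each cell and -0.29 with each library clustered on its own, both short of 1.5-fold. The Prdm1 log2 ratio in cycling cells ran from -2.44 to -0.15 over the alternatives.

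Tuft-like cells, mimetic cells with the taste signalling genes Trpm5 and Gnat3, had few Irf4 UMIs in the KO-labelled library. There were 7 UMIs in 6 of 267 cells labelled KO (3.71 CPM) and 53 UMIs in 34 of 500 cells labelled WT (14.8 CPM), a log2 ratio of -2.00 (-3.38 to -0.85). In the tuft-like cells that also had an Aire UMI, 40 labelled KO and 94 labelled WT, Irf4 had 1 UMI in the KO-labelled library and 38 in the WT-labelled library, a log2 ratio of -3.86 with a counting interval from -9.20 to -1.29. In those without an Aire UMI it had 6 UMIs labelled KO and 15 labelled WT, a log2 ratio of -0.56 (-2.21 to 0.89), which is short of 1.5-fold.

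At equal depth, Irf4 was found in 0.797% of tuft-like cells labelled KO and 1.94% of those labelled WT, which is not above the limits of the endothelial-like shares given above, so Irf4 in tuft-like cells is not shown to exceed the endothelial-like level. Over the class, Aire stood at 55.6 CPM in the KO-labelled library and 84.8 CPM in the WT-labelled library. With equal weight for each cell the Irf4 log2 ratio was -0.73. The leucocyte marker Ptprc, at 48.7 CPM labelled KO and 64.7 CPM labelled WT in this class, is also carried by some thymic tuft cells, and without cells with a Ptprc UMI the Irf4 log2 ratio was -1.92. Irf8 in tuft-like cells, also near the endothelial-like level, had a log2 ratio of -0.36 (-0.72 to -0.01), and of -0.04 without the cells with an Aire UMI.

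Neuroendocrine-like cells, marked by Chga, Chgb and Snap25, had less of both interferon regulatory factors in the KO-labelled library. Irf4 stood at 14.0 CPM (24 UMIs) in the 173 cells labelled KO and 34.8 CPM (66 UMIs) in the 157 labelled WT, a log2 ratio of -1.31 (-2.05 to -0.62). Irf8 stood at 73.5 CPM (126 UMIs) labelled KO and 113 CPM (214 UMIs) labelled WT, a log2 ratio of -0.62 (-0.95 to -0.29). Aire in this class was at 62.4 CPM in the KO-labelled library and 161 CPM in the WT-labelled library. In the cells without an Aire UMI the log2 ratios were -1.27 (-2.47 to -0.16; 11 UMIs labelled KO and 21 labelled WT) for Irf4 and -0.49 (-0.94 to -0.04) for Irf8, with Irf8 then short of 1.5-fold. It was also short of it with each library clustered on its own (-0.42), and it was -0.96 with equal weight for each cell. Prdm1 had 11 UMIs in the KO-labelled library and 4 in the WT-labelled library, too few for the 20 required.

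Keratinocyte-like cells, with Krt10, Krtdap and Flg, had the highest Prdm1 level of the epithelial classes. There were 40 cells with a Prdm1 UMI among the 201 labelled KO and 61 among the 314 labelled WT, and the log2 ratio of the level was -0.27 (-0.68 to 0.13). The 5 cells with most UMIs held 38.3% of the class's Prdm1 UMIs in the KO-labelled library and 32.5% in the WT-labelled library. At finer resolution, the cluster with all 10 keratinocyte markers had Prdm1 at 125 CPM in its 56 cells labelled KO and 120 CPM in its 98 labelled WT. The other, without a class name and led by airway genes such as Bpifa1 and Ltf beside Krt6a, had 32.0 CPM labelled KO and 40.1 CPM labelled WT.

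Prdm1 was thus higher in the cluster with cornified keratinocyte genes, in both libraries, and its interval between the libraries included 0 over the class. Split by a UMI of Krt10 at equal depth, Prdm1 was found in 15.6% (5.28 to 32.8) of cells with and 7.01% (3.55 to 12.2) of cells without labelled KO, and in 9.68% (3.63 to 19.9) of cells with and 8.70% (5.39 to 13.1) of cells without labelled WT, so the intervals overlapped in both. Over the class its log2 ratio was 0.18 with equal weight for each cell and 0.13 with classes set by markers in each cell. In the whole keratinocyte-like class, Irf8 stood at 86.8 CPM in the KO-labelled library and 91.6 CPM in the WT-labelled library, and Irf4 at 10.7 CPM labelled KO and 15.3 CPM labelled WT from 16 UMIs labelled KO and 36 UMIs labelled WT. In this class 20.7% of genes passed 1.5-fold.

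The smallest classes gave wide intervals. In microfold-like cells, which resemble the antigen-sampling cells of gut epithelium, Irf8 had 10 UMIs in the 76 cells labelled KO and 24 in the 111 labelled WT, a log2 ratio of -0.61 (-1.84 to 0.51), and one of 1.09 with each library clustered on its own. In ciliated-like cells, Irf8 had 48 UMIs in 14 of 42 cells labelled KO (109 CPM) and 10 UMIs in 7 of 28 labelled WT (36.0 CPM), a log2 ratio of 1.60 (0.59 to 2.74). Of those 48 UMIs, 70.8% came from 5 cells, and with classes set by markers in each cell the log2 ratio was -0.00015. Without the cells of highest doublet score it was 0.77. Irf4 in ciliated-like cells had 16 UMIs labelled KO and 10 labelled WT, or 36.3 CPM labelled KO and 36.0 CPM labelled WT.

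All epithelial cells were also divided by whether they held an Aire UMI, a split chosen after the data had been seen. Irf8 stood at 156 CPM in the 1022 cells with an Aire UMI labelled KO and 202 CPM in the 1566 labelled WT, a log2 ratio of -0.37 (-0.46 to -0.29). In the cells without, 2245 labelled KO and 2321 labelled WT, it stood at 102 CPM labelled KO and 107 CPM labelled WT, a log2 ratio of -0.075 (-0.19 to 0.04). Irf4 stood at 44.6 CPM labelled KO and 55.7 CPM labelled WT with an Aire UMI, a log2 ratio of -0.32 (-0.48 to -0.16), and at 13.9 CPM labelled KO and 18.5 CPM labelled WT without, a log2 ratio of -0.41 (-0.71 to -0.11).

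Summed over all epithelial cells, the Irf8 log2 ratio without an Aire UMI was thus near 0. Of the cells without one, 1238 of 2245 labelled KO and 1002 of 2321 labelled WT were Ccl21-expressing cells, where Irf8 was at 0.15 (-0.04 to 0.35). The make-up thus differed between the libraries, and its part in the sum was not tested. The classes did not all follow the sum. In Aire-stage cells the Irf8 log2 ratio was -0.50 (-0.61 to -0.39) with an Aire UMI and -0.75 (-1.37 to -0.16) without, and in cycling cells it was -0.68 (-1.03 to -0.34) with and -0.69 (-1.25 to -0.13) without. Irf4 in cycling cells was at -0.07 (-0.61 to 0.47) with and -1.18 (-2.29 to -0.11) without.

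Cells with an Aire UMI are deeper, so detection was also set at equal depth. The Aire UMI was then called in the thinned cells too, and 679 cells labelled KO and 989 labelled WT had one. Some cells counted as without one thus held an Aire UMI before thinning. At that depth, Irf8 was found in 23.6% of cells with an Aire UMI and 16.8% of those without in the KO-labelled library. In the WT-labelled library the shares were 29.6% and 18.5%. Irf4 was found in 8.54% and 2.86% in the KO-labelled library, and in 9.91% and 4.33% in the WT-labelled library. Prdm1 ran the other way in both libraries, at 1.03% with and 2.24% without in the KO-labelled library, and 1.52% and 1.94% in the WT-labelled library, with intervals that overlapped.

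**Figure D3:**
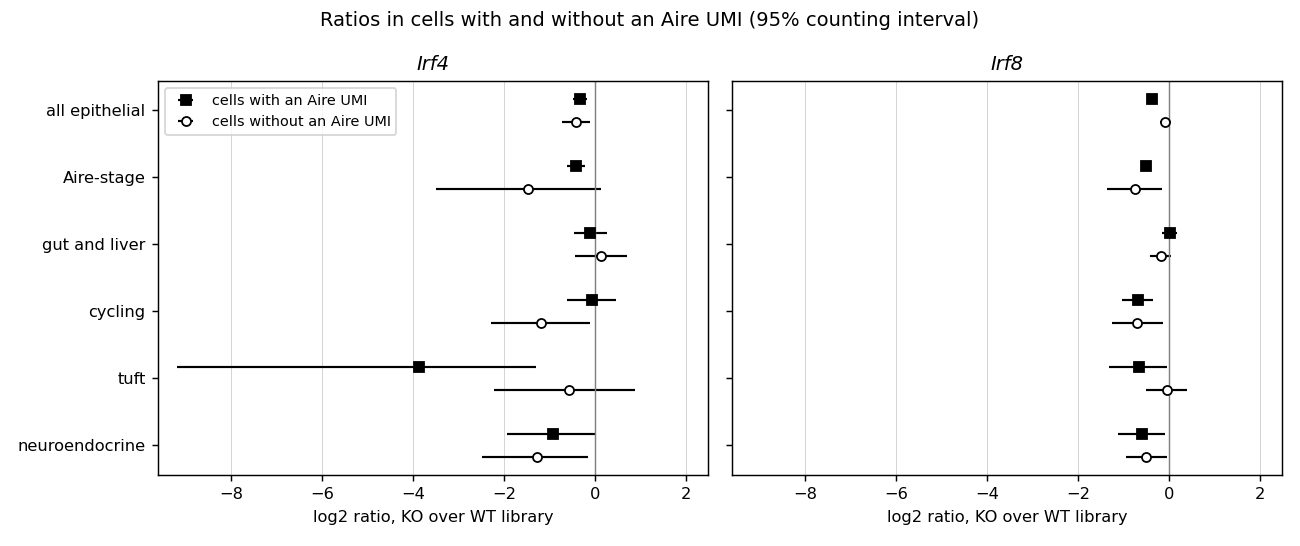
Log2 ratio of the KO-labelled library over the WT-labelled library for Irf4 (left) and Irf8 (right), in cells with an Aire UMI (squares) and without (circles), with 95% counting intervals. Irf8 lies at -0.37 with and -0.075 without an Aire UMI over all epithelial cells, and the Irf4 point of tuft-like cells with an Aire UMI (-3.86) rests on 1 UMI in the KO-labelled library.

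Co-detection in single cells was counted at 2000 UMIs per cell, beside the number that the product of the single shares gives. Over all epithelial cells, 39 cells labelled KO had UMIs of both Irf4 and Irf8, where the product gives 21.8, and 55 labelled WT, where it gives 44.4. Within the Aire-stage class the counts were 12 (product 8.76) in the KO-labelled library and 32 (31.0) in the WT-labelled library, and within the gut- and liver-like class 12 (9.99) labelled KO and 12 (13.3) labelled WT. Irf8 and Prdm1 shared 8 cells labelled KO (9.97) and 16 labelled WT (13.7). In Ccl21-expressing cells, Irf8 and Prdm1 shared 2 cells labelled KO (2.67) and 7 labelled WT (2.44). The counts are small and moved with depth: at 1000 UMIs, Irf4 and Irf8 shared 5 Aire-stage cells labelled KO (3.24) and 18 labelled WT, where Irf8 was found in 33.3% (21.1 to 47.5) of cells with an Irf4 UMI and 17.6% (15.1 to 20.4) of those without.

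Across 28 points, 14 clusters in each library, Pearson's r of log2(CPM + 1) was 0.55 between Irf4 and Irf8, 0.10 between Irf4 and Prdm1 and -0.10 between Irf8 and Prdm1. The points share their libraries, and clusters differ in depth. Among 14363 genes with at least 200 UMIs, those most like Irf4 were Micall2 (0.85), Gm17359 (0.84), Cd40 (0.83), Rhbdl2 (0.80) and Rbpj (0.80). Those most like Irf8 were Rhebl1 (0.84), Cd82 (0.82), H2-DMb1 (0.80), Serpinc1 (0.79) and Ajap1 (0.79), and those most like Prdm1 were Ablim1 (0.84), Epha2 (0.81) and Ifrd1 (0.81). Cd40 is the TNF family receptor that matures mTECs, H2-DMb1 a chaperone of MHC class II loading, and Epha2 an ephrin receptor of epithelia.

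Immune cells that carry these genes could lie within the gate, and their markers were summed in the epithelial cells. Of 6 conventional dendritic cell markers all were found, with a sum of 44.4 CPM in the KO-labelled library and 48.3 CPM in the WT-labelled library, of which Zbtb46 alone made 36.9 CPM labelled KO and 41.3 CPM labelled WT. In the gut- and liver-like cells, with the highest Irf8, 4 of the 6 were found, with a sum of 47.7 CPM labelled KO and 47.9 CPM labelled WT, and Itgax and Cd209a were at 0 in both libraries. Of 5 plasmacytoid dendritic cell markers 4 were found there, with a sum of 261 CPM labelled KO and 139 CPM labelled WT, of which Klk1, one of the kallikrein genes, made 247 CPM labelled KO and 130 CPM labelled WT, and Siglech was at 0. All 7 macrophage markers were found in these cells, with a sum of 548 CPM labelled KO and 561 CPM labelled WT. Of that sum, Lyz2 made 431 CPM labelled KO and 437 CPM labelled WT. All 6 B cell markers (43.0 CPM labelled KO, 42.6 CPM labelled WT) and all 6 plasma cell markers (65.3 CPM labelled KO, 57.7 CPM labelled WT) were found there too. The part of all these markers in the Irf8 level was not tested. The 6 B cell markers summed to 34.3 CPM in the KO-labelled library and 40.2 CPM in the WT-labelled library over all epithelial cells. Ptprc stood at 5.67 CPM labelled KO and 10.1 CPM labelled WT there, at 1.71 CPM labelled KO and 3.69 CPM labelled WT in Aire-stage and at 1.96 CPM labelled KO and 1.26 CPM labelled WT in gut- and liver-like cells.

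The levels of Irf4 and Irf8 were about as large without the cells that had a Ptprc UMI, an alternative added after the data had been seen. Irf8 then stood at 130 CPM in the KO-labelled library and 166 CPM in the WT-labelled library, a log2 ratio of -0.35, and Irf4 at 29.7 CPM labelled KO and 41.0 CPM labelled WT, a log2 ratio of -0.47. Only 70 cells labelled KO and 159 labelled WT were taken out. Of these, 46 labelled KO and 111 labelled WT were tuft-like, and 2 labelled KO and 5 labelled WT were gut- and liver-like. So few cells could change the levels little, and the part of immune cells was not tested by it. The macrophage markers, led by Lyz2, summed to 427 CPM in the KO-labelled library and 357 CPM in the WT-labelled library over all epithelial cells, and to 760 CPM labelled KO and 534 CPM labelled WT in Aire-stage cells. These sums were higher in the KO-labelled library, where Irf4 and Irf8 were lower, and their part in the result was not tested.

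In Aire-stage cells, the other interferon regulatory factors lay nearer to 0 than Irf4 and Irf8. There, all 7 of 7 measured had a log2 ratio below 0, with a median of -0.11, and none passed 1.5-fold. Over all genes tested there, 53.0% were below 0, with a median of -0.02 and a central range from -0.67 to 0.58 between the 10th and the 90th percentile. Over the 10225 genes with at least 200 UMIs, as Irf4 and Irf8 had, that range ran from -0.42 to 0.31. Irf4 (-0.42) lay at its lower end and Irf8 (-0.51) below it. The lowest of the 7 other factors were Irf9 and Irf5 (-0.12). Irf9, the DNA-binding part of the interferon response complex, stood at 35.9 CPM in the KO-labelled library and 44.8 CPM in the WT-labelled library (-0.32). The highest were Irf2 (-0.04) and Irf7 (-0.00), at 39.7 CPM labelled KO and 39.8 CPM labelled WT; with scaling to the median of all genes Irf7 turned to above 0.

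In all epithelial cells, where 51.8% of all genes tested were lower (median -0.01), 3 of the 7 family members were higher and 4 lower, with Irf5 at -0.33, Irf2 at 0.11 and Irf7 at 0.24. In gut- and liver-like cells, where 52.1% of all genes tested were lower (median -0.02), 5 were higher and 2 lower, with Irf1 (-0.08) and Irf5 (-0.05) lowest and Irf7 (0.51) highest. Irf4 and Irf8 lay below each of these 7 in Aire-stage cells.

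Of the 14 other PRDM genes, zinc finger proteins related to Prdm1, 12 were measured in Aire-stage cells. Of these, 5 were higher and 7 lower in the KO-labelled library, and the median was -0.13. Prdm16 stood at 7.55 CPM in the KO-labelled library and 14.8 CPM in the WT-labelled library (-0.97), and Mecom, also called Prdm3, at 19.1 CPM labelled KO and 36.3 CPM labelled WT (-0.93). The highest were Prdm15 (0.27) and Prdm6 (1.60, from 15 UMIs labelled KO and 8 UMIs labelled WT). In all epithelial cells 5 of 12 were higher and 7 lower, with Prdm16 (-0.61) and Prdm8 (-0.30) lowest and Prdm6 (0.84) highest. In gut- and liver-like cells 4 of 8 were higher and 4 lower, with Prdm4 (-0.97) and Prdm15 (-0.70) lowest and Mecom at 0.33.

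Of the 12 genes for DNA-binding partners of Irf4 and Irf8, 5 were higher and 7 lower in Aire-stage cells, and their median was -0.04. Spi1, the Ets partner PU.1, stood at 17.9 CPM in the KO-labelled library and 9.41 CPM in the WT-labelled library, a log2 ratio of 0.93 (0.55 to 1.32), and was the 1 member of 12 past 1.5-fold, where 9.81% of all genes were that far higher. The summed macrophage markers, given above, were higher in the same cells, and their part in the Spi1 value was not tested. Ikzf3 followed at 0.18. Jun stood at 377 CPM labelled KO and 493 CPM labelled WT (-0.39), and Ikzf1, the lymphoid zinc finger Ikaros, at 73.5 CPM labelled KO and 91.3 CPM labelled WT (-0.31).

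The same ends recurred in the wider cells for Spi1 and Ikzf1. In all epithelial cells 4 partners were higher and 8 lower, with Ikzf1 at 42.6 CPM in the KO-labelled library and 62.8 CPM in the WT-labelled library (-0.56), Spib at 110 CPM labelled KO and 134 CPM labelled WT (-0.29), Ikzf2 at 0.31 and Spi1 at 0.80. In gut- and liver-like cells 7 were higher and 5 lower, with Ikzf1 (-0.82) and Batf (-0.56) lowest, and Ikzf3 (0.74) and Spi1 (1.64, from 24 UMIs labelled KO and 12 UMIs labelled WT) highest. The cells of both classes are among all epithelial cells, so those values are no separate measurement.

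**Figure D4:**
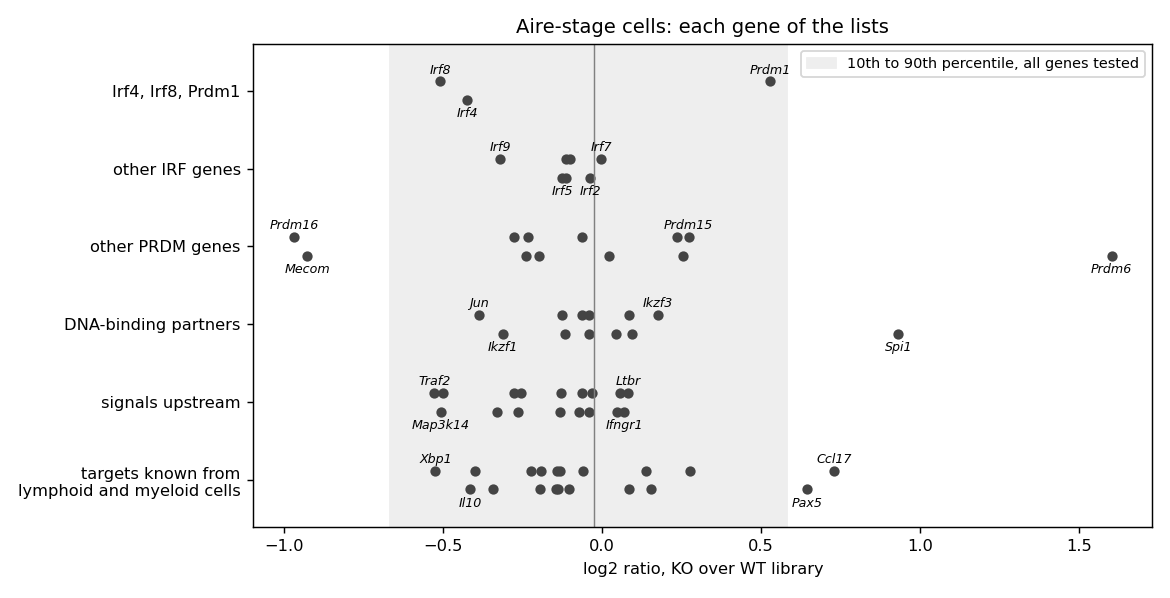
Log2 ratio of the KO-labelled library over the WT-labelled library in Aire-stage cells for each measured gene of the 5 lists and for Irf4, Irf8 and Prdm1, 1 point a gene. The grey band spans the 10th to the 90th percentile of all genes tested (-0.67 to 0.58) and the line marks their median (-0.02). Spi1 (0.93), Ccl17 (0.73) and Pax5 (0.64) lie above the band, as does Prdm6 (1.60), and Prdm16 (-0.97) and Mecom (-0.93) below it. Over genes with at least 200 UMIs, those percentiles were -0.42 and 0.31.

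Among 17 genes of the signals upstream, receptors and factors of the TNF receptor, NF-kB and interferon gamma pathways, 4 were higher and 13 lower in Aire-stage cells; their median was -0.13, and none passed 1.5-fold. The lowest were the adaptor Traf2, at 41.3 CPM in the KO-labelled library and 59.5 CPM in the WT-labelled library (-0.53), and Map3k14, the NIK kinase of the alternative NF-kB pathway, at 40.6 CPM labelled KO and 57.7 CPM labelled WT (-0.51). The highest were Ifngr1 (0.07) and Ltbr (0.08). In all epithelial cells 2 were higher and 15 lower (median -0.10; over all genes 51.8% lower, median -0.01), from Rel at 105 CPM labelled KO and 139 CPM labelled WT (-0.41) and Traf2 (-0.40) at the low end to Ifngr2 at 0.03. In gut- and liver-like cells 7 were higher and 10 lower, from Nfkb1 (-0.42) and Rel (-0.30) to Ifngr2 (0.30) and Cd40 (0.43).

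The last list held 19 genes known as targets of these factors in lymphoid and myeloid cells. In Aire-stage cells 6 were higher and 13 lower (median -0.14). Xbp1, a secretory pathway factor of plasma cells that Blimp-1 acts upon, stood at 47.1 CPM in the KO-labelled library and 67.8 CPM in the WT-labelled library (-0.52), and the cytokine gene Il10 at 7.12 CPM labelled KO and 9.50 CPM labelled WT (-0.42, interval -0.93 to 0.08). The chemokine Ccl17 stood at 41.3 CPM labelled KO and 24.9 CPM labelled WT (0.73), and Pax5, a B cell factor that Blimp-1 represses, at 15.5 CPM labelled KO and 9.94 CPM labelled WT (0.64). These were the 2 members of 19 past 1.5-fold, a share near the 9.81% of all genes that were that far higher.

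In all epithelial cells, 8 of these 19 were higher and 11 lower, with 2 past 1.5-fold downwards, as 9.70% of all genes were. Il12b was 1 of them (-0.68), while Csf1r (0.36) and Ccl17 (0.37) were highest. In gut- and liver-like cells 6 of 18 were higher and 12 lower, with Zbtb32 at -0.59. Ccl17 (0.29) and Ccl22, at 311 CPM in the KO-labelled library and 209 CPM in the WT-labelled library (0.58), were highest.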

How the data were processed

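The deposited matrices hold raw UMI counts, whole numbers for each gene in each barcode. Per the file headers they come from Cell Ranger 7.0.1, and the submitters' processing notes also name Seurat and the build mm10. The labels do not say whether intronic reads were counted. The lowest barcode holds 500 UMIs in both libraries.

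A barcode was kept with 500 genes or more, 1000 UMIs or more and no more than 10% mitochondrial UMIs. Scrublet, run per library, called no cells (highest scores 0.175 labelled KO and 0.237 labelled WT), so it is taken not to have worked. Both libraries were clustered together in scanpy 1.11.5 (3000 variable genes, 30 components, 15 neighbours, leidenalg 0.10.2 at resolution 1), without Irf4, Irf8 and Prdm1. Foxp1, Xist and the genes of chromosome Y were also left out of the clustering, as were mitochondrial, ribosomal protein and haemoglobin genes. The 19 clusters, 15 of them epithelial, were named from 24 marker lists. To be named, a cluster had to hold 3 or more markers, and 33% of the list, each 2-fold above other cells and in 10% of its cells, and these thresholds were set with the clusters known.

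For each class and library, UMIs were added up per gene and divided by the class total (CPM). Intervals, all at 95%, are exact Poisson for levels, exact binomial given the summed UMIs for ratios, and Clopper-Pearson for shares (scipy 1.17.1). For shares, cells were thinned to 2000 UMIs and shallower cells left out. Where shares were split by a UMI of Aire, Fezf2, Nos2 or Krt10, that UMI was also called after thinning. A count of 0 was taken to allow 3 counts. A ratio counted as measured from 20 UMIs in the pair of sums, and the size used for counts of genes was 1.5-fold. With 1 library per group no p-value was computed. The ratio intervals were checked on simulated sums that held counting error alone. That check could not cover the gathering of UMIs in single cells or the spread between animals. Gene positions came from GENCODE M21 and promoters from RefSeq.

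The 3 genes and the 5 lists were chosen with earlier results of these data known. The text names, of each list, the 2 genes with the lowest and the 2 with the highest log2 ratio, and for each of the 3 genes the 5 most correlated, apart from some genes that are not reported here. Alternatives changed the clustering resolution, the way classes were set, the cell filter, doublets, the weight per cell, the scaling and the thinning depth.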

Additional observations from a re-analysis of the deposited data

Results flagged for a closer look

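The direction of the Irf8 log2 ratio, KO label over WT label, was not the same in all classes. It was -0.51 in Aire-stage, -0.75 in cycling, -0.36 in tuft-like and -0.62 in neuroendocrine-like cells, each with a counting interval below 0. In ciliated-like cells it was 1.60, with an interval above 0. With 1 library per group the difference between classes was not tested. The ciliated-like value rests on 48 UMIs in the KO-labelled library and 10 in the WT-labelled library, and the tuft-like level of Irf8 was near that of endothelial-like cells.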

How the results depend on the processing

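No paired analysis was possible because each group is 1 library, and for the same reason no replicate could be left out. Of 305 log2 ratios recomputed under other settings, 280 stayed within the interval of the reported value, 24 moved beyond it, and 1 whose interval left out 0 changed sign. Ratios whose interval included 0 also changed sign under some settings. Of 540 levels 481 stayed within their interval, and of 12 shares of cells with a UMI, over all epithelial and Aire-stage cells, 11 moved beyond theirs when cells were thinned to 1000 UMIs. Over all epithelial cells the Irf8 log2 ratio was -0.41 with the stricter cell filter (at least 1000 genes, 2000 UMIs and at most 5% mitochondrial UMIs), -0.18 with equal weight for each cell and -0.075 without cells with an Aire UMI, an alternative added after the data had been seen. In Aire-stage cells it was -0.35 with classes set by markers in each cell, and with the same setting the ciliated-like Irf8 log2 ratio was -0.00015. The causes were not tested. Over 12 settings the Irf4 log2 ratio of all epithelial cells ran from -0.54 to -0.35 and that of Prdm1 from -0.25 to 0.04, and over 11 settings in Aire-stage cells they ran from -0.49 to -0.30 and from 0.34 to 0.59. In gut- and liver-like cells, resolution 2 gave -0.92 for Irf4 and -0.54 for Irf8, and classes set by markers in each cell gave -1.05 and -0.35, so the near equality of that class depends on how it is drawn. With each library clustered on its own, Irf8 in microfold-like cells was at 1.09. None of the 3 genes was among the 3000 variable genes when allowed. The median log2 ratio of all genes, which the scaling alternative sets to 0, was -0.01 over all epithelial and -0.02 in Aire-stage cells.

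Without the minimum of 20 UMIs, 8043 genes passed 1.5-fold over all epithelial cells in place of 3754, and 10390 in Aire-stage cells in place of 4201. At 2-fold the counts were 1516 and 1856. Few UMIs limit Prdm1 outside keratinocyte-like cells and every gene in microfold- and ciliated-like cells.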
